A study of Rattus norvegicus with 8 samples.

Results

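The transcripts of 10 genes known to be induced by low oxygen were followed in the rat liver cell line BRL-3A: Hif1a, Vegfa, Bnip3, Egln3, Adm, Ankrd37, Ndrg1, P4ha1, Pdk1 and Pfkfb3. Every probe on the array that is not a control and carries one of these 10 gene names was taken, which gave 13 of 41012 probes. All 13 passed the filter on dim probes, which 24853 probes of the array passed. The study compared 4 arrays of cells labelled NC, which the labels do not spell out, with 4 arrays of cells that had received the siRNA lnc19959.2, named after a long noncoding RNA. Both groups were BRL-3A cells grown in serum-containing medium and harvested 48 h after transfection with lipofectamine. The labels describe culture in humidified air with added CO2 and name no treatment with low oxygen. BRL-3A is a single established line, and the labels do not say whether the 4 samples of a group came from separate cultures.

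Hypoxia-inducible factor 1 (HIF-1) is a pair of proteins, an alpha subunit encoded by Hif1a and a beta subunit encoded by Arnt. In the presence of oxygen, prolyl hydroxylases of the Egln family mark the alpha subunit, the Vhl ubiquitin ligase binds the mark, and the protein is degraded. When oxygen is scarce the alpha subunit accumulates and binds short response elements at genes of blood vessel growth, glycolysis, mitochondrial turnover and collagen modification. Because this control acts on the protein, Hif1a mRNA is not a measure of HIF-1 activity.

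The 10 genes did not move together. Vegfa (1.81-fold), Adm (1.78-fold), Ankrd37 (1.36-fold) and Ndrg1 (1.30-fold) were lower in siRNA cells, Pdk1 (1.73-fold) and P4ha1 (1.24-fold) were higher, and Hif1a, Egln3, Bnip3 and Pfkfb3 did not pass the test (limma with Benjamini-Hochberg adjustment over all kept probes, 4 arrays per group). Counts of this size are to be read against a broad difference between the groups: by the same test 29.2% of 10812 genes with a symbol were lower, against 4 of the 10, and 35.8% were higher, against 2 of the 10 (65% in either direction, against 6). All 4 siRNA arrays lay below all 4 NC arrays for the same 4 lower genes, as for 27.9% of all genes, and above them for the 2 higher ones, as for 34.7%. Of the 13 probes, 5 were lower and 2 higher, where 32.2% of all probes were lower and 29.4% higher (61.6% in either direction). With quantile normalization 7 of the 10 genes were lower and 2 higher (28.4% and 36% of all genes), and with cyclic loess also 7 and 2 (30.7% and 33.8%). With scaling to the array median 2 were lower and 2 higher (15.3% and 60.2% of all genes). With scaling to spike-in controls 1 was lower and 3 higher (10.1% and 72.4%). With normexp, another background correction, 0 were lower and 1 higher, against 766 and 1179 of all 10812 genes. At an unadjusted limma p under 0.05, 1 member was then lower and 2 higher. The median log2 fold change of the 10 genes, each by its brightest probe, was -0.33, and that of all genes was 0.04. These medians were -0.02 and 0.35 with scaling to the array median, and 0.21 and 0.58 with scaling to spike-in controls.

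The members turn on a few sequences. Vegfa is shown by both of its array probes because they read separate parts of the transcript, and Pdk1 by its probe because it had the largest rise of the 10. The capitals in the first line mark the start codon of the Vegfa coding sequence.
Vegfa probe A_44_P300751: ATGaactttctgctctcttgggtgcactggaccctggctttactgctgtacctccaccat
Vegfa probe A_43_P15572: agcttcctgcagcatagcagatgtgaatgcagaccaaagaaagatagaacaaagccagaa
Pdk1 probe A_44_P139718: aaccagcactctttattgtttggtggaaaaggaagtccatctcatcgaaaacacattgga
On the rn4 assembly the first lies on chromosome 9 from 10521744 to 10521803. The second spans 386 bases of the same chromosome, 10528580 to 10528965, and the Pdk1 probe spans 301 bases of chromosome 3, 54302974 to 54303274, so these 60-base probes are interrupted in the genome.

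The upstream sequence of 3 of the genes is shown because Pdk1 and Ankrd37 carry the core of the hypoxia response element and moved in opposite directions, and Adm carries none in this window. The core was searched as ACGTG or GCGTG on both strands, so that its reverse complements CACGT and CACGC also count, and an uninterrupted CACGTG counts as 2 overlapping matches. Capitals mark the matches in the 250 bases before the transcription start, from RefSeq on GRCr8: Pdk1 at chr3:77113264-77113513, Ankrd37 at chr16:53001257-53001506 and Adm at chr1:174179950-174180199, all on the plus strand.
Pdk1: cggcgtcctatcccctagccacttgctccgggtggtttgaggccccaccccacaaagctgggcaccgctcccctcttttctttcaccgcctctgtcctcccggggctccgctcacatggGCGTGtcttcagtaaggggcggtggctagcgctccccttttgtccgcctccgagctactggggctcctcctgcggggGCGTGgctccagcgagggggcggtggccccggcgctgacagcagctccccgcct
Ankrd37: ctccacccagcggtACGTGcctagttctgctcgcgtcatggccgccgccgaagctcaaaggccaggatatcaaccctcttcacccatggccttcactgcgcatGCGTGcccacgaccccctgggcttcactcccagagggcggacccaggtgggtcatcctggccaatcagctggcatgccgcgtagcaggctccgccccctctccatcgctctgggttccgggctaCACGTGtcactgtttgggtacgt
Adm: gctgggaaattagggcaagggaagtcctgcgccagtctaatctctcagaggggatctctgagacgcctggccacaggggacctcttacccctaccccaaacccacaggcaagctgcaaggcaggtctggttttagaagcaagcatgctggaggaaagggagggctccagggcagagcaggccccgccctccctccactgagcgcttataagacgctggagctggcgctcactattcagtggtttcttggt
RefSeq windows from 250 bases before to 50 bases after the start were given for 9 of the 10 genes, with 2 starts for Vegfa. Some matches lie after the start, outside the sequences shown. An Ankrd37 match also crosses the start, so its first bases end the sequence shown without capitals. Of these 9 genes, 6 held a core match: Hif1a (3 matches), Bnip3 (4), Ankrd37 (5), P4ha1 (3), Pdk1 (4) and Pfkfb3 (2). Neither Vegfa window held one, nor did those of Egln3 and Adm. Across 33469 RefSeq windows of the same length, 41.6% held either form and 19.2% held ACGTG. Windows with a match are richer in G and C (57.8%, against 49.2% in windows without one), and the G and C content of the 6 members with a match was 64% to 73.7%. A match is a string of letters and not a site shown to be bound.

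**Figure D1:**
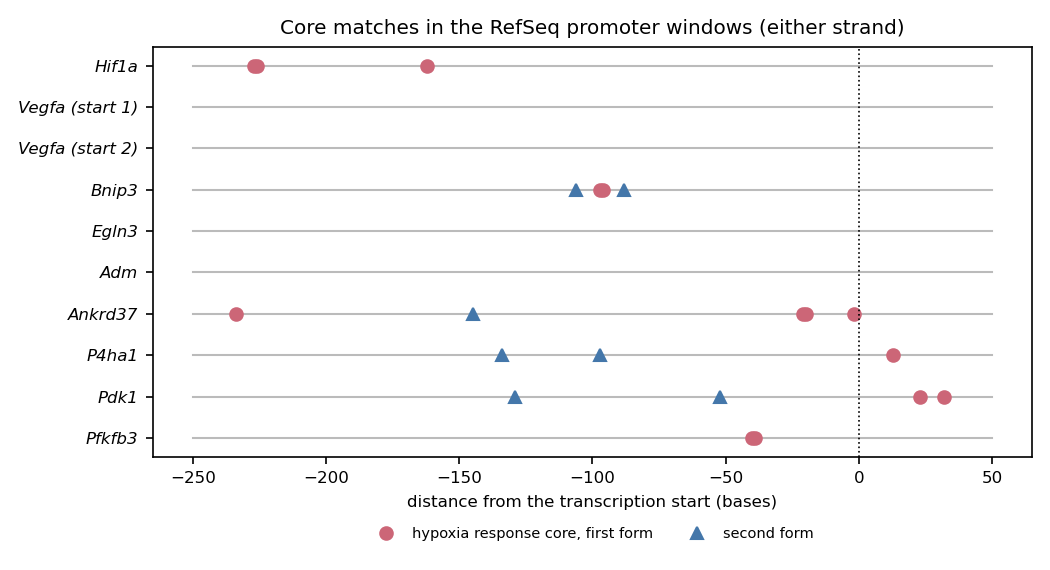
Each line is a RefSeq window of a hypoxia-inducible gene from 250 bases before to 50 bases after the transcription start (x axis, bases), and symbols mark core matches on either strand, circles for the ACGTG form and triangles for the GCGTG form. Hif1a, Bnip3, Ankrd37, P4ha1, Pdk1 and Pfkfb3 have matches, and the windows of Vegfa, Egln3 and Adm have none.

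Signals below are log2 values relative to the 75th percentile of the array, a fold change is the log2 difference siRNA minus NC, and SE is the standard error of the limma fit. The 75th percentile of processed intensity was 245 to 261 on NC arrays and 289 to 322 on siRNA arrays, and 55.4% to 64.1% of spots were well above background. Log2 signals correlated across probes at 0.986 to 0.993 for arrays of the same group and at 0.946 to 0.962 for arrays of different groups. Each group was hybridised on a slide of its own and scanned on its own, so the effect of slide or scan cannot be told apart from that of the group. Scaling to the array median would raise the median log2 fold change of all probes by 0.31, and scaling to spike-in controls by 0.53. The RNA lnc19959.2 was not found by name among the probes, and its level was not checked.

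Among the secreted signals, Vegfa, the growth factor that drives new vessels, was lower. On its brightest probe, printed 10 times on each array, NC replicates 1 to 4 read 2.60, 2.76, 2.76 and 2.29, and siRNA replicates 1 to 4 read 1.98, 1.87, 1.88 and 1.25. All siRNA values lay below all NC values, and siRNA replicate 4 stood apart at the bottom. The log2 fold change was -0.86 ± 0.18 (SE, n = 4 per group, limma adjusted p = 0.00393). The 10 spots of this probe had an SD of 0.04 to 0.09 within an array, which covers printing and scanning noise only. The probe over the start codon gave 1.22, 1.32, 1.19 and 0.89 on NC arrays and 0.81, 0.45, 0.54 and -0.05 on siRNA arrays, a log2 fold change of -0.72 ± 0.18 (SE, limma adjusted p = 0.0098). Probes in both parts of the transcript were thus lower. Without siRNA replicate 4 the brightest probe changed by -0.69 (adjusted p = 0.0026). It was called after scaling to the median (-0.55) but not with spike-in scaling (-0.32, limma adjusted p = 0.116), and the other probe was called with neither (-0.40 and -0.18). With normexp background correction, which models background as noise added to the signal, neither was called (-0.58 and -0.47, limma adjusted p = 0.145 and 0.135).

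Adm encodes adrenomedullin, a peptide that widens vessels. Its probe, on rn4 chromosome 1 from 168382310 to 168382369 and also printed 10 times, read 7.84, 7.77, 7.77 and 7.65 in NC cells and 7.09, 7.0, 7.05 and 6.56 in siRNA cells. The groups did not overlap, and siRNA replicate 4 was again the lowest array. The log2 fold change was -0.83 ± 0.12 (SE, limma adjusted p = 0.000593). On siRNA replicate 3, 2 of the 10 spots were marked as outliers by the scanner software and left out. Without siRNA replicate 4 the value was -0.71. Scaled to the median, Adm was called lower by -0.52, and with spike-in scaling by -0.30 at an adjusted p just inside the threshold (0.04997). The call was lost with normexp background correction (-0.54, adjusted p = 0.147).

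Genes of their receptors, co-receptors and Ramp partner proteins went both ways, with 3 of 7 measured genes higher and 4 lower (35.8% and 29.2% of all genes). Nrp2, one of the lower ones, was above background on no siRNA array, and over probes bright on all 8 arrays the counts were 3 and 3 of 6. With spike-in scaling 4 were higher and 1 lower (72.4% and 10.1% of all genes). With normexp background correction the counts were 2 and 1 (1179 and 766 of all 10812 genes). Ramp2, called lower by -0.21, turned to 0.10 after scaling to the median and 0.33 with spike-in scaling. Kdr, the main signalling receptor of Vegfa, was 3.12-fold higher, and the Vegfa co-receptor Nrp1 was 1.44-fold higher. Flt1, another Vegfa receptor named for completeness, was 1.53-fold lower, and its other kept probe was lower too (-0.44). The brightest Flt1 probe lost its call with spike-in scaling (-0.08, limma adjusted p = 0.515) and with normexp (limma adjusted p = 0.141). Ramp1 and Ramp3 encode small proteins that set which peptide the calcitonin-like receptor binds, and Ramp1 was 3.05-fold lower while Ramp3 was 1.79-fold higher. Calcrl itself, the receptor that binds adrenomedullin with a Ramp partner, was well above background on no array. Kdr, Ramp1 and Ramp3 kept these directions under all 8 alternative background and scaling settings, and Nrp1 stood at -0.09 with normexp background correction. Kdr also marks endothelial cells. Of 5 endothelial markers Kdr alone was well above background on all 8 arrays, and Pecam1 was so on none. Vwf (at least 8.18-fold lower) and Tek (at least 2.93-fold lower) were bright in every NC sample and in 0 of 4 siRNA samples, and Cdh5 (at least 1.31-fold higher) in every siRNA sample and in 0 of 4 NC samples, the bounds being taken against the lowest signal above background on each array. These 3 passed the filter only through the group where they were bright. With normexp background correction Cdh5 stood at -0.32 (limma adjusted p = 0.497). The summed signal of the 4 markers was 1.5 to 2.08 on NC and 3.07 to 4.22 on siRNA arrays, in units of the 75th percentile, and Kdr made up most of it. All samples were of a single established line, and whether endothelial cells were present at all was not tested. Fewer cells of a type and less RNA per cell cannot be told apart in such bulk samples.

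**Figure D2:**
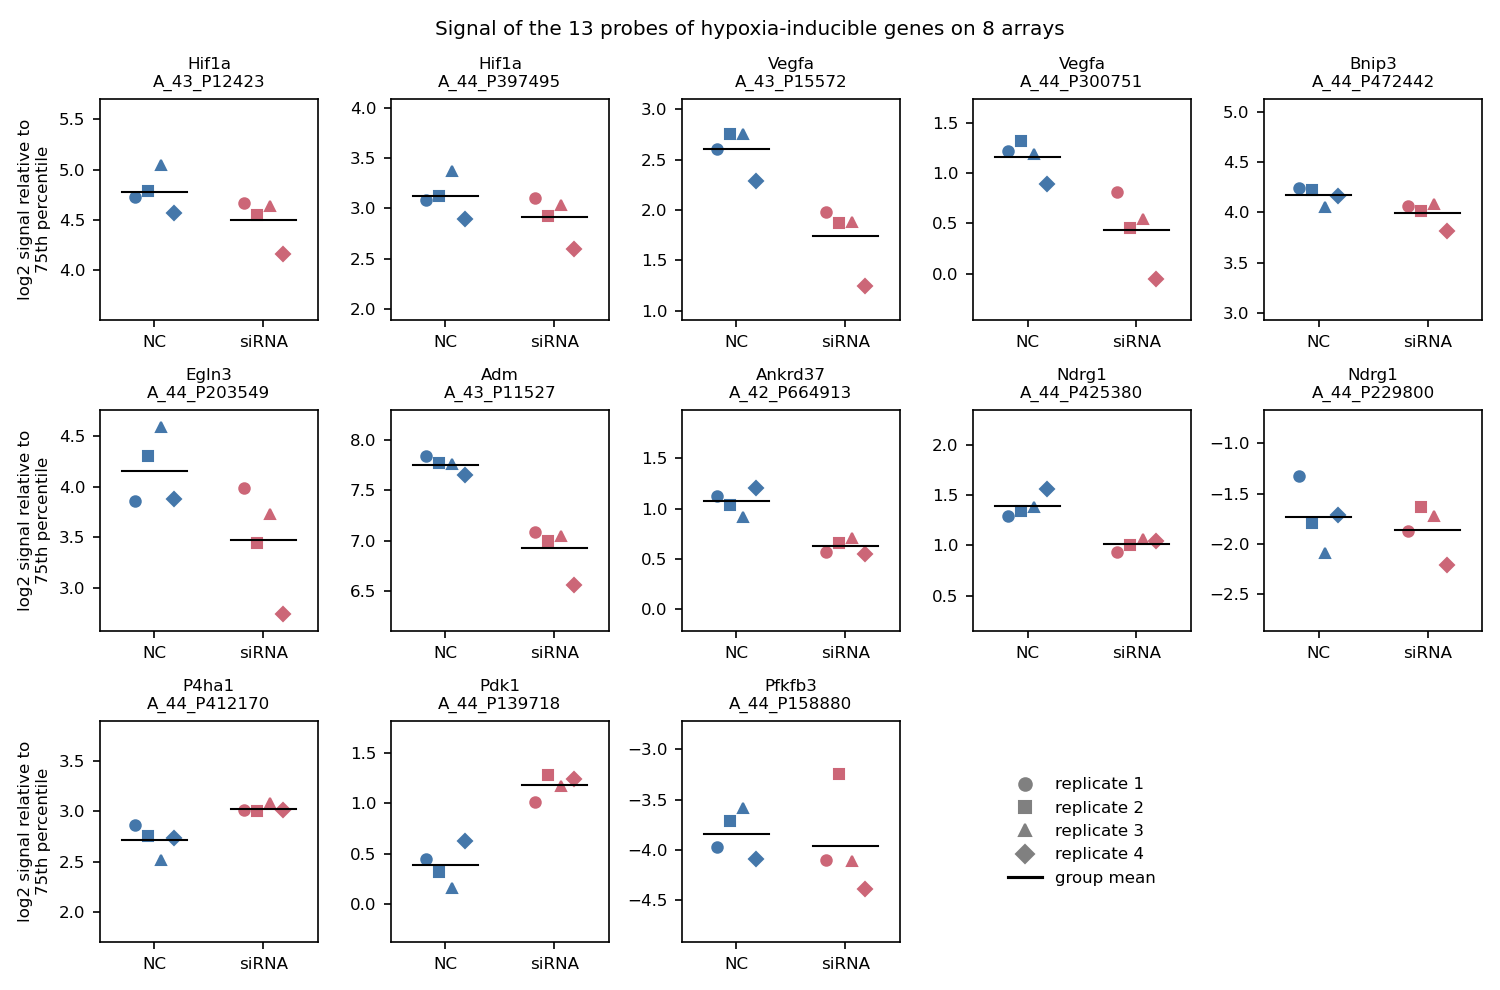
Log2 signal relative to the array's 75th percentile (y axis, each panel spanning 2.2 units) of the 13 probes of the 10 genes in NC and siRNA cells, with 1 symbol shape per replicate number and a bar at the group mean. Vegfa, Adm, Ankrd37 and the brighter Ndrg1 probe lie lower in all 4 siRNA arrays (Ankrd37 and Ndrg1 turn with spike-in scaling), Pdk1 and P4ha1 higher, and siRNA replicate 4 (diamond) is the lowest siRNA array for 10 of the 13 probes.

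Pdk1 encodes a kinase that switches off pyruvate dehydrogenase and so slows the conversion of pyruvate to acetyl-CoA. It read 0.45, 0.32, 0.16 and 0.62 in NC cells and 1.01, 1.28, 1.18 and 1.24 in siRNA cells. Every siRNA array lay above every NC array. The log2 fold change of 0.79 ± 0.11 (SE, limma adjusted p = 0.00045) was called in all 20 alternative settings, from 0.68 to 1.33. The other kinases of this family went the same way: Pdk2 was higher by 0.83 ± 0.10 and Pdk3 by 0.71 ± 0.09 (SE, limma adjusted p = 0.000234 and 0.000293). Pdk4 was not called (0.61 ± 0.42 SE), and its NC arrays ranged from -3.74 to -1.69.

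P4ha1 encodes a catalytic subunit of the collagen prolyl 4-hydroxylase. NC arrays gave 2.86, 2.75, 2.51 and 2.73, and siRNA arrays gave 3.01, 3.0, 3.08 and 3.01. The siRNA arrays were nearly level and all above the NC arrays, with a log2 fold change of 0.31 ± 0.08 (SE, limma adjusted p = 0.00819). Its probe lies on unplaced sequence of rn4. The value was positive in every setting tried, from 0.19 with quantile normalization to 0.85 with spike-in scaling, but the call was lost with normexp (0.56, adjusted p = 0.0731). P4ha2, which encodes another isoform of this subunit, was higher by 0.69 ± 0.06 (SE, adjusted p = 5.48e-05) from 5.35 to 5.56 on NC arrays and 6.10 to 6.22 on siRNA arrays. Plod1, a collagen lysyl hydroxylase named after its value was seen, was higher by 0.42 ± 0.05. P4ha3 (0.15 ± 0.23), P4hb, the shared beta subunit (0.18 ± 0.07), and Plod2 (0.88 ± 0.49), named for completeness, were not called (SE, limma adjusted p = 0.592, 0.0573 and 0.155).

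Ankrd37, a small ankyrin repeat protein gene known as a target of HIF-1, read 1.13, 1.04, 0.92 and 1.21 in NC cells and 0.58, 0.66, 0.71 and 0.55 in siRNA cells. The ranges did not overlap, and the log2 fold change was -0.45 ± 0.07 (SE, limma adjusted p = 0.00119). The probe covers 49552226 to 49552285 of rn4 chromosome 16. The call was lost after scaling to the median (-0.14) and with normexp (-0.26), and with spike-in scaling the value was 0.088.

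Ndrg1, a gene that responds to stress and differentiation, was measured by 2 probes, of which only the brighter was called. The brighter one, on rn4 chromosome 7 from 104302898 to 104302957, read 1.29, 1.34, 1.38 and 1.56 in NC cells and 0.93, 1.01, 1.06 and 1.04 in siRNA cells, without overlap (log2 fold change -0.38 ± 0.07 SE, limma adjusted p = 0.00188). The dimmer one, which spans 820 bases of the genome from 104317460 to 104318279, ranged from -2.09 to -1.33 in NC and from -2.21 to -1.63 in siRNA cells and was not called (-0.13 ± 0.18 SE, 95% interval -0.55 to 0.29). The interval of the dimmer probe holds the value of the brighter one. The brighter probe lost its call with median scaling (-0.07, adjusted p = 0.422) and normexp (-0.19, adjusted p = 0.404) and stood at 0.15 with spike-in scaling. Its relatives Ndrg2 and Ndrg3 went up, by 1.02 ± 0.10 and 0.96 ± 0.09 (SE, limma adjusted p = 7.53e-05 and 7.12e-05), each in all 4 arrays, and all kept Ndrg3 probes were higher (1.03 and 0.35 on its other ones). Ndrg4 was not called (0.015 ± 0.07 SE).

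**Figure D3:**
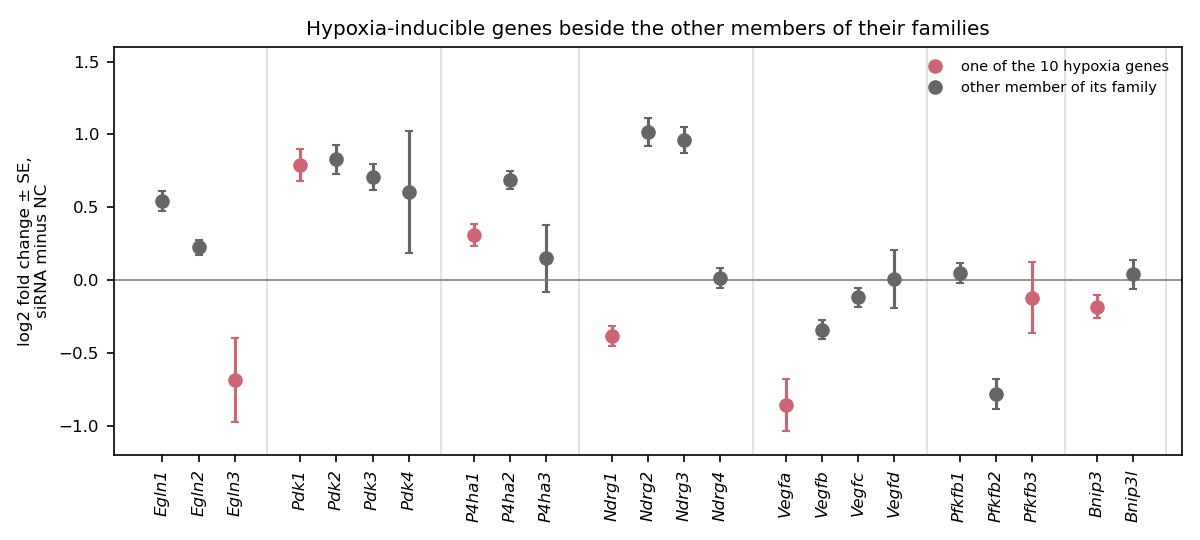
Log2 fold change, siRNA minus NC, with its SE (y axis) for hypoxia-inducible genes (red) and other members of their gene families (grey), 4 arrays per group and each gene by its brightest probe. Pdk1, Pdk2 and Pdk3 lie above 0 together, while Ndrg1 and Egln3 lie below 0 (Ndrg1 at 0.15 with spike-in scaling) and Ndrg2, Ndrg3, Egln1 and Egln2 above it.

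Hif1a itself was not called on either probe. The brightest probe, on rn4 chromosome 6 from 96463815 to 96463874, read 4.73, 4.79, 5.04 and 4.57 in NC cells and 4.67, 4.55, 4.64 and 4.16 in siRNA cells. The groups overlapped, with siRNA replicate 4 the lowest array. The log2 fold change was -0.28 ± 0.14 (SE, limma adjusted p = 0.117), and its 95% interval, -0.60 to 0.05, leaves room for a decrease of the size seen for Ndrg1. The other probe, printed 10 times, gave -0.21 ± 0.14 (SE, adjusted p = 0.22). Without siRNA replicate 4 the 2 probes stood at -0.16 and -0.10. The direction depended on the scaling: the brightest probe was called lower with quantile normalization (-0.40) and cyclic loess (-0.39), was 0.034 after scaling to the median and 0.26 with spike-in scaling, where the other probe was called higher (0.33, adjusted p = 0.0392).

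Egln3 encodes the prolyl hydroxylase that is itself most strongly induced by HIF-1. Its probe, on rn4 chromosome 6 from 74451958 to 74452017, read 3.86, 4.31, 4.59 and 3.88 in NC cells and 3.99, 3.44, 3.73 and 2.73 in siRNA cells. The groups overlapped through siRNA replicate 1, and both groups were widely spread (SD 0.36 and 0.54). The difference of -0.69 ± 0.29 (SE) missed the threshold (limma adjusted p = 0.0683, 95% interval -1.35 to -0.02), and it was -0.44 without siRNA replicate 4. The value was below 0 in all 20 alternative settings and was called in 5 of them. The other 2 hydroxylases were higher: Egln1, the main oxygen sensor, by 0.55 ± 0.07 and Egln2 by 0.22 ± 0.05 (SE, limma adjusted p = 0.000294 and 0.00731).

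Bnip3, a mitochondrial protein gene that promotes the removal of mitochondria, read 4.24, 4.23, 4.06 and 4.17 in NC cells and 4.07, 4.01, 4.08 and 3.81 in siRNA cells. The difference of -0.18 ± 0.08 (SE) was not called (adjusted p = 0.0685), the ranges overlapped, and Bnip3 was called lower with quantile normalization (-0.28) and higher with spike-in scaling (0.35), and stood at 0.13 with median scaling. Its relative Bnip3l stood at 0.04 ± 0.10 (SE). Pfkfb3, whose enzyme makes the activator of phosphofructokinase, was close to background, with 3 of 4 arrays of each group well above it. It ranged from -4.09 to -3.58 in NC cells and from -4.39 to -3.25 in siRNA cells (log2 fold change -0.12 ± 0.24 SE, limma adjusted p = 0.683, 95% interval -0.68 to 0.44), and it turned to 0.19 after scaling to the median and 0.41 with spike-in scaling. Its relative Pfkfb2 changed by -0.78 ± 0.10 (SE).

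**Figure D4:**
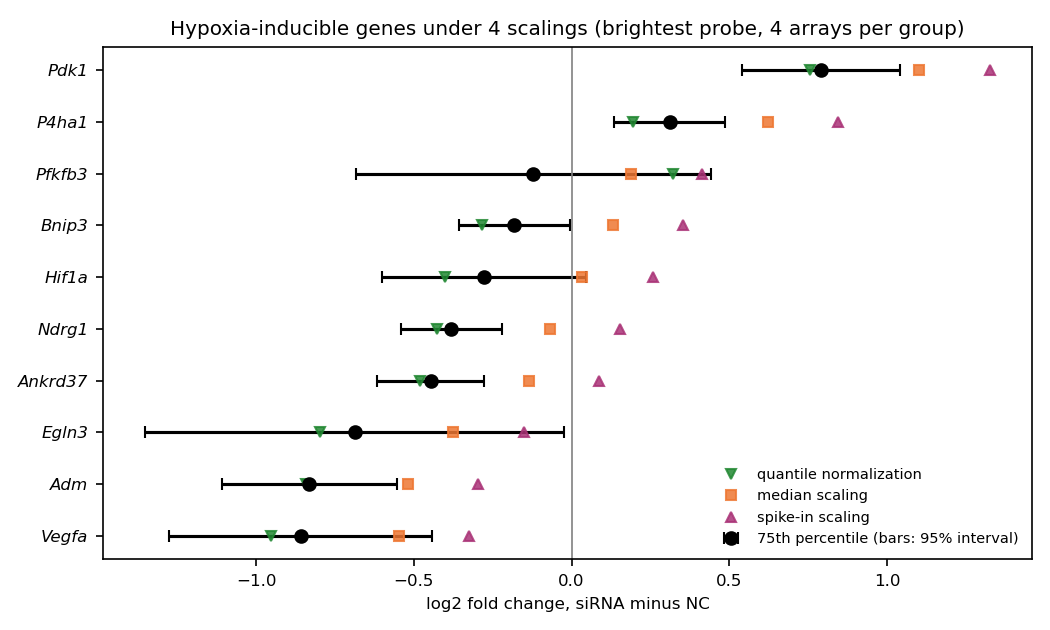
Log2 fold change, siRNA minus NC (x axis), of the 10 genes by their brightest probe, with the 95% interval at the 75th-percentile scaling (black) and the values with quantile normalization and with scaling to the median or to spike-in controls (4 arrays per group). Pdk1 and P4ha1 are above 0 and Vegfa, Adm and Egln3 below 0 at all 4, while Hif1a, Bnip3, Ankrd37, Ndrg1 and Pfkfb3 change sign.

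A constant added to a whole array cannot alter the gap between the changes of 2 genes. The log2 fold change of Pdk1 exceeded those of Vegfa, Adm, Ankrd37 and Ndrg1 by 1.65, 1.62, 1.24 and 1.17, and that of P4ha1 exceeded them by 1.17, 1.14, 0.76 and 0.69. These pairs were chosen after their values were seen and carry no test. Each sets a gene called higher against one called lower, so every gap is above 0 by this choice. The pairs do not show which genes stayed level. The gaps are the same with scaling to a percentile, the median or spike-in controls, while quantile normalization, cyclic loess and normexp can alter them.

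Within the siRNA group, siRNA replicate 4 was the lowest array for 10 of the 13 probes, whereas it was the lowest for 39.1% of 24835 kept probes. The 3 exceptions were Pdk1, P4ha1 and the brighter Ndrg1 probe. Without that array the counts of called genes were the same, 2 higher and 4 lower.

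The array profiles most like that of Hif1a, by Pearson correlation over the 8 arrays, were those of Map3k8 (0.991), Abhd17b (0.985) and Csf2 (0.981), and 46 genes exceeded 0.95. For Vegfa they were Anxa4 (0.999), Sdcbp (0.997) and Ggct (0.996), among 548 genes above 0.95. These values describe likeness across arrays that also differ by group and slide.

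The partners and controllers of HIF were looked at by list. Of 5 measured HIF subunits and partners, 0 were higher and 2 lower by limma (also 0 and 2 at an unadjusted p under 0.05). Of all genes 35.8% were higher and 29.2% lower. The lower ones were Arnt, the beta subunit (-0.71 ± 0.17), and Epas1, the HIF-2 alpha subunit (-0.30 ± 0.09, SE, limma adjusted p = 0.00699 and 0.0179). Epas1 turned to 0.015 after scaling to the median and to 0.24 with the spike-in controls, and Arnt was negative in all 8 alternative background and scaling settings but lost its call in 4 of them, with normexp (limma adjusted p = 0.143), quantile normalization (0.0628), median scaling (0.0551) and spike-in scaling (-0.18, 0.330). With median scaling, and again with spike-in scaling, 3 of the 5 were higher and 0 lower by limma (1 and 0 lower at an unadjusted p under 0.05). Of all genes 60.2% and 72.4% were then higher, and 15.3% and 10.1% lower. Of 11 genes of oxygen sensing and HIF turnover, 6 were higher, 2 lower and 3 not called (35.8% and 29.2% of all genes), with a median of 0.22 against 0.04 for all genes. The counts were 9 and 2 with both median and spike-in scaling, and 1 and 1 with normexp background correction, where 1179 of all 10812 genes were higher and 766 lower. Siah2, a ubiquitin ligase that degrades the hydroxylases, was 1.77-fold lower. Cited2, which competes with HIF for the coactivators p300 and CBP, was 1.85-fold lower, and its 2 other kept probes were lower too (-0.81 and -0.72). The genes of these coactivators, Ep300 and Crebbp, were not called on their brightest probes (-0.03 ± 0.05 and 0.09 ± 0.05 SE), while another kept probe of each was lower (both -0.53, limma adjusted p = 0.00304 and 0.000639) and the third one of Crebbp was not called (0.12). Elob, a subunit of the Vhl ligase complex, was 1.26-fold higher, like Egln1. Siah2 and Cited2 were lower and Elob and Egln1 higher in direction under all 8 alternative background and scaling settings.

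Other target genes of HIF were taken as 2 lists by function, chosen with earlier results of these data known. Of 26 measured targets of metabolism and mitochondria, 12 were higher, 4 lower and 10 not called, with a median of 0.19. Of all genes 35.8% were higher and 29.2% lower, with a median of 0.04. Gbe1, the glycogen branching enzyme, rose by 0.52 ± 0.05, the hexokinase gene Hk1 by 0.41 ± 0.05, Ddit4, an inhibitor of mTORC1, by 0.48 ± 0.06 and the glycolytic enzyme gene Tpi1 by 0.48 ± 0.07 (SE, limma adjusted p from 0.000109 to 0.000849). Gbe1 stood at -0.28 with normexp background correction. The 4 lower genes, named for completeness, were Hk2 (-0.46 ± 0.11), Pfkp (-0.35 ± 0.08), Cox4i2 (-0.32 ± 0.08) and Eno1 (-0.18 ± 0.07). These are ± SE, with limma adjusted p from 0.00557 to 0.0476. With spike-in scaling all 4 stood above 0, from 0.08 to 0.35. The glucose transporter Slc2a1, named after its value was seen, was not called (-0.14 ± 0.10 SE; 0.17 after scaling to the median and 0.39 with spike-in scaling), and Ldha, which makes lactate, was higher by 0.46 ± 0.08. With spike-in scaling 23 of the 26 were higher and 0 lower by limma (0 lower at an unadjusted p under 0.05), when 72.4% of all genes were called higher and 10.1% lower. With normexp 1 was higher and 0 lower (8 and 1 at an unadjusted p under 0.05), where 1179 of all 10812 genes were higher and 766 lower.

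Of 26 measured targets of matrix, vessels, iron and signalling, 5 were higher, 16 lower and 5 not called, with a median of -0.62. Flt1 is among them and is also counted with the receptors above. Of all genes 35.8% were higher and 29.2% lower, with a median of 0.04. Bhlhe41, a transcriptional repressor of the circadian clock, was 9.54-fold lower (log2 fold change -3.25 ± 0.08 SE, adjusted p = 1.5e-07). Hmox1, which breaks down haem, was 2.59-fold lower and the secreted glycoprotein gene Stc2 was 1.54-fold lower, while P4ha2, described above, was higher. Several of these genes also answer to other stress and growth signals, Hmox1 being a target of NRF2. The count depended on the scaling, at 8 higher and 12 lower after scaling to the median (60.2% and 15.3% of all genes). It was 11 higher and 8 lower with spike-in scaling (72.4% and 10.1% of all genes). With normexp 2 were higher and 8 lower, where 1179 of all 10812 genes were higher and 766 lower. Bhlhe41, Hmox1 and Stc2 were below 0 and P4ha2 above 0 in each of these settings.

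**Figure D5:**
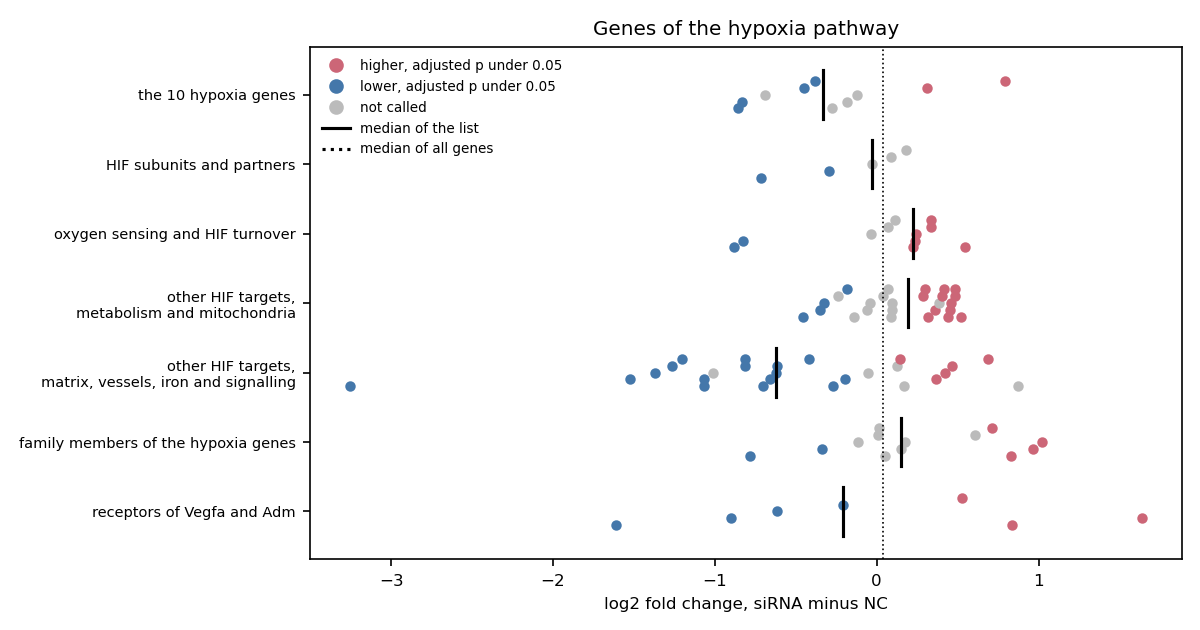
Log2 fold change, siRNA minus NC (x axis), of the 10 hypoxia-inducible genes and of the measured genes of 6 further lists, coloured by call, with the list median as a bar and the median of all genes as a dotted line. The targets of matrix, vessels, iron and signalling have a median of -0.62, and those of metabolism and mitochondria a median of 0.19. The lists were chosen with earlier results of these data known.

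Markers of the labelled tissue were largely dim. Of 10 hepatocyte markers, 5 (Alb, Ttr, Tf, Serpina1 and Tat) were well above background on no array, and of 8 fibroblast and stellate cell markers 6 were measured. Beside the changes above, the summed signal of the 4 measured hepatocyte markers was 0.309 to 0.462 on NC and 4.63 to 6.44 on siRNA arrays, nearly all of it from the cytochrome P450 gene Cyp2e1 in siRNA cells (log2 fold change 4.94). Afp was lower (-0.42) but above background on 3 of 4 NC and 2 of 4 siRNA arrays. Its call was lost with quantile normalization (0.01), median scaling (-0.11), spike-in scaling (0.11) and normexp (-0.66). Fgb was not called (-0.75), and Hnf4a was higher (0.83) but above background on 1 of 4 NC arrays. With normexp Hnf4a stood at -0.40 and was not called. The fibroblast and stellate markers summed to 267 to 295 and 312 to 327, with Col3a1 (2.66) and Col1a2 (0.61) higher and Pdgfrb lower (-0.50). Pdgfrb lost its call with median scaling (-0.19), spike-in scaling (0.03) and normexp (-0.41). Col1a1, Vim and Des were not called on their brightest probes, while both other kept Col1a1 probes were higher (0.66 and 0.45). Of the 2 measured cholangiocyte markers, which summed to 1.13 to 1.43 and 3.48 to 4.23, Krt7 was higher (1.75) and Sox9 was lower (-1.01), bright in 3 of 4 NC samples and 1 of 4 siRNA samples. Sox9 lost its call with quantile normalization (-0.53), cyclic loess (-0.63), median scaling (-0.70), spike-in scaling (-0.47) and normexp (-0.71). The 2 measured leukocyte and macrophage markers summed to 6.43 to 7.28 and 5.13 to 6.22, with Cd68 lower (-2.40) and Cd14 not called (0.20). Whether cells of these types were present in this single line was not tested.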

How the data were processed

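RNA of 8 BRL-3A samples (4 NC, 4 siRNA, 1 colour) was hybridised to Agilent Whole Rat Genome arrays. The deposited intensity values were made with Feature Extraction 12.0.3.1, per the file headers, and are background-subtracted and detrended within the array and not scaled between arrays. A deposited series table with log2 values of 86 probes, none of them a probe of the 10 genes, gave no value here.

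Control spots and spots marked as outliers (129 to 174 per array) were left out, signals were taken to log2 relative to the 75th percentile of the array, and repeated spots were averaged per probe. Probes well above background on at least 3 of 4 arrays of a group were kept. Members were matched by the files' gene name, other genes by accession or symbol through the RefSeq table of GRCr8, each by its brightest kept probe. Of 41012 probes, 18028 were named by accession, 3168 by current and 400 by older symbol, and 19416 stayed unnamed. The comparison used limma 3.58.1 under R 4.3.3 (lmFit and eBayes, two-sided; calls at an adjusted p under 0.05), and the fit was tested on simulated data. The number of arrays limits the precision, and the p-values reflect the spread among arrays of a group, which may be technical.

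The members and lists were chosen with earlier results of these data known. Named are all members, up to 4 called genes with the smallest adjusted p in each further list, 3 genes most like Hif1a and Vegfa, and others where stated or where they belong to a member's family. Same-numbered arrays deviated together at r = 0.01, 0.03, -0.03 and 0.21, so numbers were not taken to pair them. Alternatives covered background correction, scaling, filters, outlier spots, the replicate block and each array left out.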

Additional observations from a re-analysis of the deposited data

Results flagged for a closer look

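On siRNA replicate 4, 2 values stood apart from the other 3 arrays of their group, by a gap to the nearest array of more than 82.9% of the group's range (26 groups were checked, and chance flags about 5% of groups of this size). Vegfa read 1.25 there on its brightest probe, against 1.87 on the nearest array. Adm read 6.56, against 7.0 on the nearest array. Both genes stayed called lower without this array (-0.69 and -0.71).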

How the results depend on the processing

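Pdk1 was called in all 20 alternative settings, P4ha1 and Adm in 19, Vegfa in 18 and Ankrd37 and Ndrg1 in 17. With normexp background correction 3629 probes were called in place of 15316, Hif1a stood at 0.040 and Bnip3 at 0.15. By limma 1 hypoxia-inducible gene was then higher and 0 were lower, against 1179 and 766 of all 10812 genes. At an unadjusted p under 0.05, 2 of the members were higher and 1 lower. Leaving spots dimmer than their local background (at most 10 per array) out of that correction gave 15406 probes, 2 higher and 5 lower. Of all 10812 genes 3760 were then higher and 3306 lower. The lower genes numbered 7 with quantile normalization, with cyclic loess and with a percentile taken over bright probes alone, 2 after scaling to the median and 1 with spike-in scaling. Of all 10812 genes 3071, 3315, 3799, 1655 and 1092 were lower in these 5 settings, in the same order. Median scaling turned Hif1a (0.034), Bnip3 (0.13) and Pfkfb3 (0.19), and spike-in scaling turned Hif1a (0.26), Bnip3 (0.35), Ankrd37 (0.088), Ndrg1 (0.15) and Pfkfb3 (0.41). Pfkfb3 was also above 0 with quantile normalization (0.32), with cyclic loess (0.26) and, when arrays were left out, ranged from -0.36 (without siRNA replicate 2) to 0.020 (without siRNA replicate 4). The cause of these differences was not tested, beyond the constant that a scaling adds. Leaving out 1 array at a time gave 13591 to 15125 probes, 2 higher genes and 4 to 5 lower genes. With the replicate number as a block 14992 probes, 2 higher and 5 lower genes were called, and only 1 of the 4 numbers matched best with its own partner. Among the 10 genes Pfkfb3 lay nearest to background. No member was in the authors' table, so that alternative gave no value.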
